A study of Homo sapiens with 6 samples.

Results

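The genes described here make, attach and remodel the glycosylphosphatidylinositol (GPI) anchor, together with PYURF, which shares its transcript with one of them, PIGY. All 30 symbols of the set were found, each once, among the 60606 genes of the table. PIGY and PYURF were selected on their TPM in these tumors, by the difference between irradiated and control tumors, so their values are given below as a description without a test. The other 28 genes were added because they belong to the pathway, whatever their values.

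RNA was sequenced from 3 irradiated and 3 control tumors of MDA-MB-231, an established human breast cancer cell line, grown with Matrigel under the skin of the left flank of NSG mice (NOD/SCID/IL2Rγ-null). The cells were WT (wild type) in both groups, and the host lacks T, B and natural killer cells. Irradiated tumors received a single local dose of 10 Gy of X-rays at about 800 mm3 and were collected after 3 days, and control tumors were not irradiated. No size or collection time is given for the controls, and no label ties the tumors of a group to different animals. The p-values therefore speak only to the spread among these 6 samples, which may be technical.

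Levels are in TPM, a gene's estimated share of all transcripts in a tumor, scaled for gene length, which keeps no record of read depth. At 1 TPM or more there were 13833 to 13951 genes in irradiated and 13392 to 14218 in control tumors. The 6 genes taken as present in this line (VIM, CD44, AXL, CAV1, CD274 and EGFR) summed to 3656 to 4158 TPM in irradiated and 4438 to 5897 TPM in control tumors. This sum was mostly VIM, at a mean of 3353 TPM in irradiated and 4646 TPM in control tumors, while CAV1 differed by -0.016 on the log2 scale. ESR1, PGR, CDH1 and EPCAM together gave 3.13 to 4.84 TPM in irradiated and 4.79 to 5.27 TPM in control tumors, mostly from EPCAM. Skeletal muscle markers summed to 2.37 to 126.6 TPM in irradiated tumors, with tumor 2 the highest of them, and to 184 to 495 TPM in control tumors. Fibroblast markers summed to 131 to 214 TPM in irradiated and 474 to 1001 TPM in control tumors. Genes were tested at a mean of 1 TPM or more, which MYH1, MYH2, CASQ1 and DCN reached only through the controls. The filter itself favours a lower level after irradiation in these genes. Without them, the groups did not overlap in 7 of 7 muscle and 3 of 4 fibroblast genes, against 26.6% of all tested genes. That share still includes genes that reached the filter only through a single group. The fibroblast sum was carried by the collagen genes COL1A1, COL1A2 and COL3A1, while PDGFRB was at 8.09 TPM in irradiated and 3.51 TPM in control tumors and DCN differed by -0.08 on the log2 scale. None of these muscle and fibroblast markers was listed at 0 in all 6 tumors. The part of such cells in the differences below was not tested, and in bulk tissue fewer cells of a type and less RNA per cell cannot be told apart.

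GPI is a glycolipid that holds many proteins at the outer cell surface. It is built in the membrane of the endoplasmic reticulum: a complex that includes PIGA and PIGY adds N-acetylglucosamine to phosphatidylinositol, mannose and ethanolamine phosphate follow, a transamidase joins the finished glycolipid to the protein, and the lipid and glycan are then remodelled. PIGY is a small subunit of the first complex. PYURF, also called PREY, is a small mitochondrial protein that supports methyltransferases of coenzyme Q synthesis and complex I assembly. Both proteins are known to be read from a single human mRNA, PYURF from its first reading frame and PIGY from a second one downstream.

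The reading frames are shown because they place PIGY inside the PYURF transcript. In GENCODE release 29 (GRCh38), PYURF (ENSG00000145337) runs on the minus strand of chromosome 4 from 88520985 to 88523813 with 2 exons and a transcript of 1361 bases. PIGY (ENSG00000255072) is annotated as 1 exon of 217 bases from 88521573 to 88521789, in exon 2 of PYURF on the same strand. All 217 bases occur in the PYURF transcript, at positions 557 to 773, so in that release PIGY has no base of its own. The frame of PYURF encodes 114 residues, the frame of PIGY encodes 71, and 98 bases lie between them. RefSeq gives both genes the same span, 88520998 to 88523776 on GRCh38.p14. The release used for the deposited table is not given in the sources used here. The first 30 bases of each frame and the last 30 bases of the PIGY frame follow from the GENCODE transcript, 5′ to 3′ on the minus strand, with start and stop codons in capitals.
PYURF frame start, chr4:88523671-88523700: ATGctgagtggagcacgctgcaggctcgcc
PIGY frame start, chr4:88521760-88521789: ATGtttctgtctcttcctacgttgactgtt
PIGY frame end, chr4:88521574-88521603: atgggtattaaactcttcaggcataatTGA

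The start region of PYURF is shown as the one start region that RefSeq sequences gave for the pair. It covers 250 bases before and 50 bases after the start on GRCh38.p14, minus strand, chr4:88523727-88524026, with matches to the GC box (GGGCGG, searched on both strands) in capitals.
PYURF start region: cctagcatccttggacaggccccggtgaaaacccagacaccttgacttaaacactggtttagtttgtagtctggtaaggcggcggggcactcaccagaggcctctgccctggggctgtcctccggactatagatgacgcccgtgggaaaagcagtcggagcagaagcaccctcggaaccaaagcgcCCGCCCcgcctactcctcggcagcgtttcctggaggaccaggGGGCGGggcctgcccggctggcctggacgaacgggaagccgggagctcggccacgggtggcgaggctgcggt
It held 2 GC boxes, and no CCAAT or TATAAA on either strand. A GC box was present in 45.0% of all 35116 such regions, CCAAT in 34.6% and TATAAA in 11.5%. Start regions were matched for 25 of the 30 genes, and of these 16 held a GC box, 7 CCAAT and 1 TATAAA in at least 1 region. These counts are per gene, and a gene with several regions has more chances of a match. The percentages above are per region, so the counts cannot be set against them.

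PIGY and PYURF had the same TPM as each other in every irradiated tumor, while in the control tumors all of the signal was listed under PYURF. PIGY was at 39.01, 41.73 and 36.41 TPM in irradiated tumors 1, 2 and 3, and was listed at 0 in the 3 control tumors. PYURF was at 39.01, 41.73 and 36.41 TPM in the same irradiated tumors, against 114.2, 102.98 and 100.56 TPM in control tumors 1, 2 and 3. Within each irradiated tumor the values of the genes were thus equal to the last deposited decimal, and PIGY made up 50% of their sum, against 0% in each control tumor. Taken alone, PIGY stood above all controls and PYURF below all of them. Whether both groups were quantified with the same annotation and settings is not given in the sources used here. A difference in these cannot be told apart from irradiation in the values of PIGY and PYURF, or in those of the other genes. No fold change is given for PIGY, because it was listed at 0 in every control, and PIGY passed the filter on low values only through the irradiated tumors.

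Added together, PIGY and PYURF were lower in irradiated tumors by much less than PYURF alone. TPM is scaled for gene length, and the length used for each gene is not given in the sources used here. The sum may therefore not hold the same signal in both groups. The sum was 78.02, 83.46 and 72.82 TPM in the irradiated tumors, against 114.2, 102.98 and 100.56 TPM in the controls. Its mean was 78.1 ± 5.32 TPM in irradiated and 105.9 ± 7.28 TPM in control tumors (SD, n = 3 each), 26.3% lower after irradiation, and the groups did not overlap. On the scale of log2(TPM + 1) the sum differed by -0.43 (irradiated minus control, standard error 0.079 from the spread within each group) and PYURF alone by -1.42 (standard error 0.079). Without any one tumor the difference of the sum ranged from -0.48 to -0.38 and that of PYURF from -1.46 to -1.36.

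**Figure D1:**
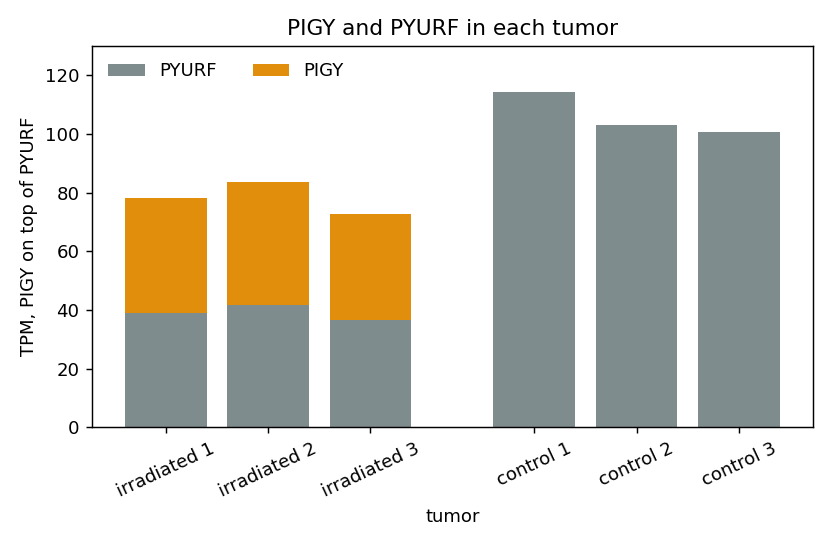
TPM of PYURF (grey) and PIGY (orange, on top) in each tumor, irradiated tumors on the left and controls on the right. In the irradiated tumors the bars reach 72.82 to 83.46 TPM and are split evenly, and in the controls they reach 100.56 to 114.2 TPM and hold PYURF alone.

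Equal values and whole groups at 0 were looked for in the rest of the table, at a minimum of 5 TPM chosen after seeing the data. Equal TPM in all 3 irradiated tumors occurred in 3 sets among the 8991 genes at 5 TPM or more in each of them: PIGY with PYURF, a set of 5.8S ribosomal RNA genes and a set of genes without symbols. In the control tumors 2 sets were equal among 8905 genes, again 5.8S genes and genes without symbols. Genes listed at 0 in all controls and at 5 TPM or more in all irradiated tumors numbered 7, PIGY among them, and 3 genes showed the opposite. Of these 10 genes, PIGY and 1 gene without a symbol were protein-coding in GENCODE release 29, and pseudogenes and noncoding RNA made up most of the rest.

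Genes with overlapping exons on the same strand formed 829 pairs in which both were tested. In each pair the gene with the larger log2 difference was taken as the first, so its share of the pair's summed TPM tends to be higher after irradiation by construction. The share of the first gene was higher in irradiated tumors by a median of 4.71 percentage points, and the PIGY pair, at 50% in irradiated and 0% in control tumors, ranked 18th of 829. It was the only pair with equal values in all 3 irradiated tumors, and no pair was equal in all 3 controls. In 54 pairs a gene was listed at 0 in all tumors of a group. In 10 pairs the genes were called in opposite directions, a count given as a description only. PIGY and PYURF were selected on this same contrast, so their place among these 10 pairs is no result.

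**Figure D2:**
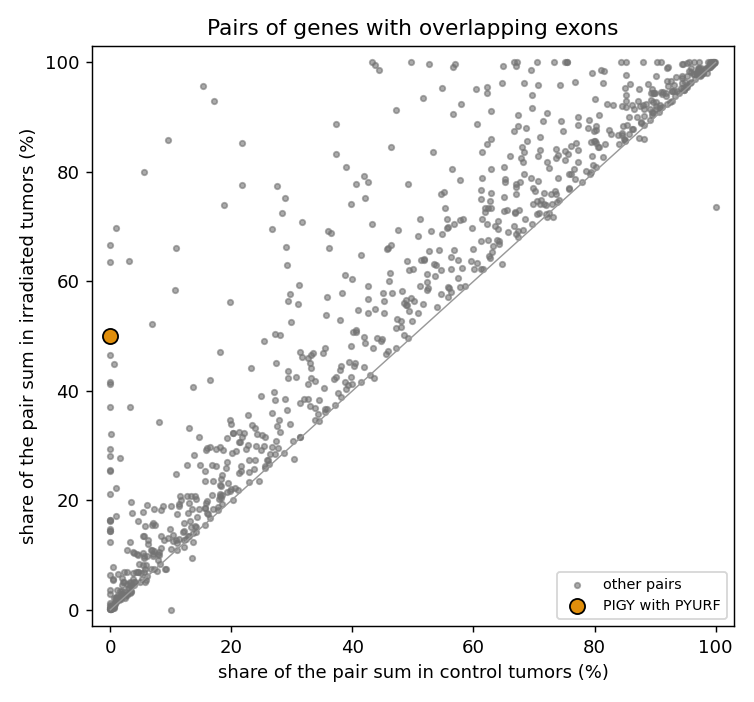
Share of the pair's summed TPM held by the first gene in irradiated tumors (vertical, %) against control tumors (horizontal, %) for 829 pairs with overlapping exons, each share a mean of 3 tumors. The first gene is the one with the larger log2 difference, most points therefore lie above the diagonal of equal shares, and PIGY lies at 50% and 0%.

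None of the other 26 tested pathway genes differed past the threshold. The test was limma on log2(TPM + 1), run over the 14140 genes whose mean level was 1 TPM or higher, and of these 2.98% passed an adjusted p of 0.05, 1.37% higher and 1.61% lower in irradiated tumors. Of the 28 genes, PIGZ and PGAP1 fell short of that mean and were not tested, and 0 of 26 passed. Before adjustment, 4 genes had a limma p under 0.05 (DPM2, PIGV, PIGA and DPM1), or 15.4%, against 20.5% of all tested genes. The groups did not overlap in 7 of 26, 3 higher and 4 lower in irradiated tumors, which is 26.9% against 26.6% of all tested genes (11.6% higher and 15% lower). The median log2 difference was 0.064, against -0.056 over all tested genes, with 16 genes above 0 and 10 below. The differences ranged from -0.73 to 0.56, and the 95% intervals were 0.61 to 1.36 wide. Summed over the 28 genes, the level was 806, 843 and 791 TPM in irradiated tumors and 766, 740 and 815 TPM in controls, and the groups overlapped.

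**Figure D3:**
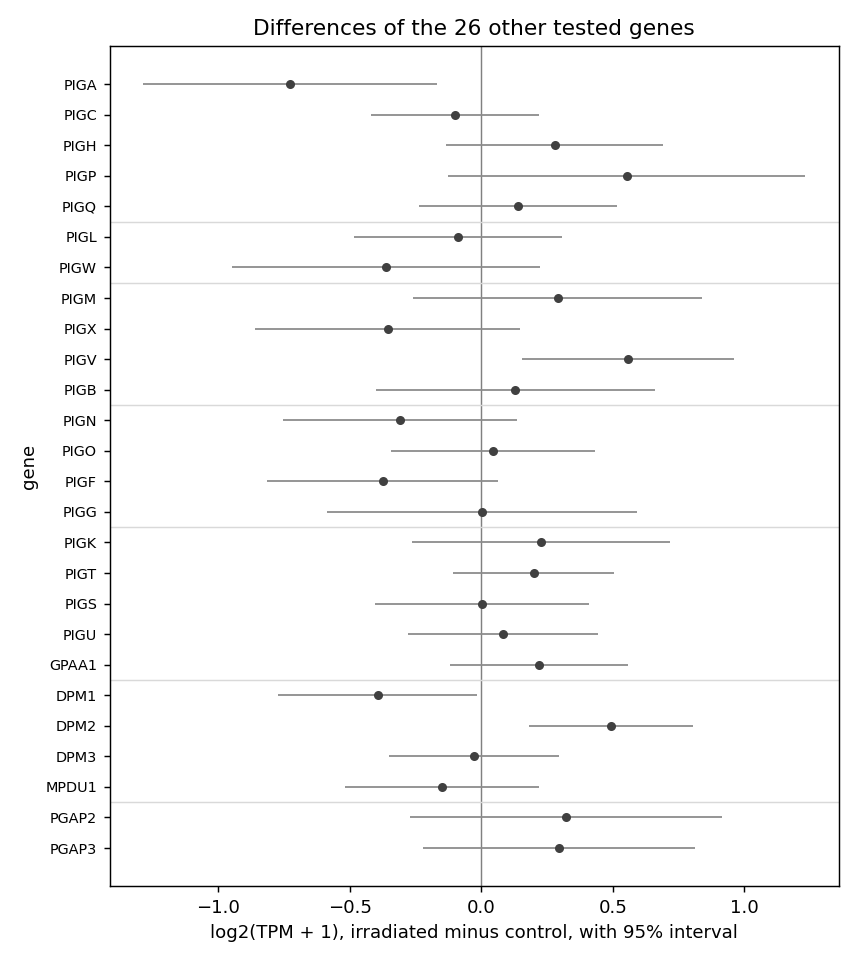
Difference of log2(TPM + 1), irradiated minus control, for the 26 other tested genes in pathway order, with limma's 95% intervals (lines), 3 tumors per group. Of the intervals, 22 hold 0, and those of DPM2 and PIGV lie above it and those of PIGA and DPM1 below it before adjustment for all genes.

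In the complex that starts the pathway, the catalytic subunit PIGA was lower in each irradiated tumor than in any control. PIGA was at 3.40, 5.67 and 3.13 TPM in irradiated tumors and at 7.17, 6.15 and 8.38 TPM in controls. Irradiated tumor 2 and control tumor 2 lay close together, and the groups did not overlap. The log2 difference of -0.73 (95% interval -1.29 to -0.17) had a limma adjusted p of 0.145 and ranged from -0.94 to -0.60 without single tumors. The gene (ENSG00000165195) lies on the X chromosome, at 15319451 to 15335580 (GRCh38, minus strand). PIGC was at 21.4, 21.9 and 19.8 TPM in irradiated and 22.8, 22.2 and 22.8 TPM in control tumors, and PIGH at 17.5, 17.4 and 18.3 TPM in irradiated and 11.5, 16.7 and 15.7 TPM in control tumors. Both are subunits of the same complex, neither overlapped between the groups, and the gap of PIGC was small (log2 difference -0.10, adjusted p = 0.724). PIGH differed by 0.28 (adjusted p = 0.417). The subunit PIGP was at 12.3, 12.0 and 10.5 TPM in irradiated tumors and at 7.15, 12.4 and 4.75 TPM in controls, which spread widely (log2 difference 0.55, adjusted p = 0.332). PIGQ, which stabilises the complex and was the highest of the 5, was at 36.4 ± 5.03 TPM in irradiated and 32.8 ± 3.68 TPM in control tumors (adjusted p = 0.663). The sum of these 5 genes overlapped between the groups, at 85.2, 96.5 and 90.9 TPM in irradiated and 81.4, 86.6 and 88.1 TPM in control tumors.

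The next steps are deacetylation by PIGL and acylation of inositol by PIGW. PIGL was at 16.4 ± 2.22 TPM in irradiated and 17.5 ± 2.21 TPM in control tumors (SD, n = 3 each, limma adjusted p = 0.809). PIGW was at 7.63, 10.8 and 8.40 TPM in irradiated tumors and at 14.9, 7.86 and 13.3 TPM in controls, where control tumor 2 lay among the irradiated ones (log2 difference -0.36, adjusted p = 0.464).

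Among the mannosyltransferases, PIGV, which adds the second mannose, was higher in each irradiated tumor than in any control. PIGV was at 10.22, 10.97 and 10.25 TPM in irradiated tumors and at 7.90, 6.54 and 6.04 TPM in controls. The irradiated values lay closer together than the controls, and the groups did not overlap. The log2 difference of 0.56 (95% interval 0.16 to 0.96) had a limma adjusted p of 0.126, which under the alternatives ran from 0.0618 to 0.473. The gene (ENSG00000060642) lies on chromosome 1, at 26787472 to 26798398 (GRCh38, plus strand). PIGM, which adds the first mannose, was low at 2.10 ± 0.298 TPM in irradiated and 1.54 ± 0.336 TPM in control tumors (adjusted p = 0.525), and its partner PIGX was at 6.23 ± 1.33 TPM in irradiated and 8.25 ± 1.70 TPM in control tumors (adjusted p = 0.399). PIGB, which adds the third mannose, was at 10.7 ± 2.34 TPM in irradiated and 9.70 ± 2.39 TPM in control tumors (adjusted p = 0.789). PIGZ, which adds a further mannose that only some anchors carry, was at 0.47, 0.26 and 0.65 TPM in irradiated and 0.28, 0.24 and 0.17 TPM in control tumors.

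The enzymes that add ethanolamine phosphate did not differ past the threshold. PIGN, which acts on the first mannose, was at 4.42, 5.23 and 3.87 TPM in irradiated tumors and at 6.25, 5.42 and 5.71 TPM in controls, without overlap (log2 difference -0.31, limma adjusted p = 0.406). PIGF, the partner that both PIGO and PIGG need, was at 11.1, 9.68 and 8.62 TPM in irradiated tumors and at 15.2, 13.3 and 10.6 TPM in controls (log2 difference -0.37, adjusted p = 0.311). PIGO was at 14.6 ± 0.311 TPM in irradiated and 14.2 ± 2.26 TPM in control tumors. PIGG was at 15.4, 15.9 and 15.2 TPM in irradiated tumors and at 18.1, 9.83 and 20.5 TPM in controls. Control tumor 2 was thus the lowest of all 6 for PIGG, and without it the log2 difference of 0.0046 became -0.30 (adjusted p = 0.237).

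The transamidase that attaches the anchor held the gene with the highest level of the set. PIGT, which stabilises the complex, was at 216, 219 and 194 TPM in irradiated tumors and at 172, 168 and 208 TPM in controls (log2 difference 0.20, limma adjusted p = 0.439). GPAA1, a subunit needed for the bond between anchor and protein, was at 72.5, 78.5 and 83.9 TPM in irradiated tumors and at 76.6, 58.2 and 67.6 TPM in controls (log2 difference 0.22, adjusted p = 0.441). The catalytic subunit PIGK was far lower, at 22.7 ± 3.65 TPM in irradiated and 19.5 ± 5.02 TPM in control tumors (adjusted p = 0.581). PIGS was at 38.6 ± 6.56 TPM in irradiated and 38.4 ± 5.10 TPM in control tumors, and PIGU at 20.5 ± 2.40 TPM in irradiated and 19.2 ± 1.19 TPM in control tumors. All 5 subunits had a difference above 0, but those of PIGS (0.0025) and PIGU (0.083) were near 0, and 0 of 5 passed. Without single tumors the difference of PIGS ranged from -0.11 to 0.13. The sum of the 5 subunits was 370.2, 389 and 350 TPM in irradiated and 325, 305 and 353 TPM in control tumors, so that the groups overlapped at a single pair of tumors.

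The synthase of dolichol phosphate mannose, the mannose donor of the pathway, had subunits on both sides of 0. DPM2, which holds the catalytic subunit in the membrane and also takes part in the first GPI complex, was at 53.2, 50.1 and 56.1 TPM in irradiated tumors and at 40.2, 38.2 and 34.2 TPM in controls. All irradiated values lay well above all controls. Its log2 difference of 0.49 (95% interval 0.18 to 0.80) had the smallest p of the 26 genes (limma adjusted p = 0.0946), and its adjusted p under the alternatives ran from 0.0707 to 0.433. The gene (ENSG00000136908) lies on chromosome 9, at 127935099 to 127938484 (GRCh38, minus strand). The catalytic subunit DPM1 was at 33.9, 39.0 and 30.2 TPM in irradiated tumors and at 43.1, 52.8 and 40.6 TPM in controls, also without overlap but in the other direction. Its log2 difference was -0.39 (95% interval -0.77 to -0.016, adjusted p = 0.227). DPM3, the tether of DPM1, was at 50.8 ± 5.98 TPM in irradiated and 51.6 ± 2.55 TPM in control tumors (adjusted p = 0.938). MPDU1, needed for use of the donor, was at 91.4 ± 8.46 TPM in irradiated and 102.1 ± 18.0 TPM in control tumors (adjusted p = 0.636).

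Genes that remodel the anchor were low and overlapped between the groups. PGAP2 was at 11.8 ± 2.98 TPM in irradiated and 9.30 ± 2.73 TPM in control tumors, and PGAP3 at 10.7 ± 1.22 TPM in irradiated and 8.69 ± 2.38 TPM in control tumors (limma adjusted p = 0.511 and 0.490). Both act on the fatty acids of the anchor after it has left the endoplasmic reticulum. PGAP1, which removes the acyl chain from inositol, was at 0.93, 0.67 and 0.85 TPM in irradiated and 1.05, 1.22 and 0.76 TPM in control tumors.

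**Figure D4:**
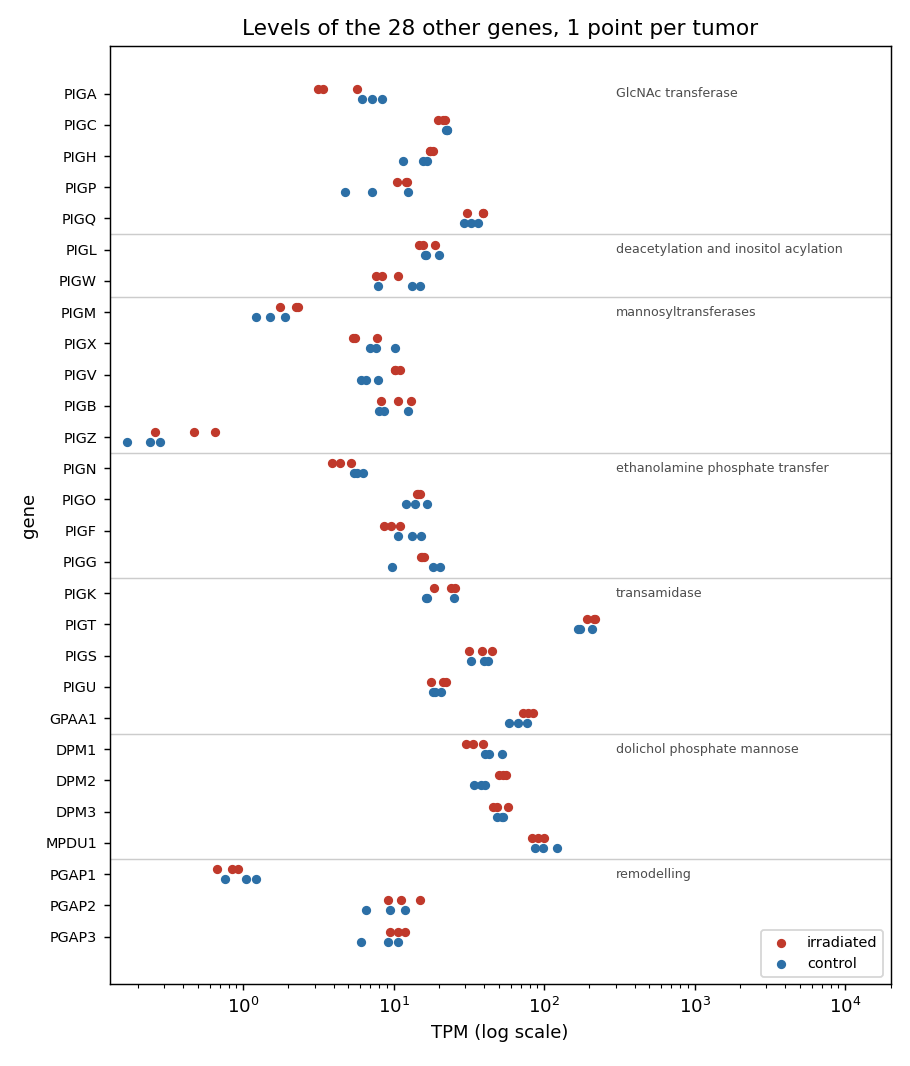
TPM of the 28 other genes on a log axis, 1 point per tumor, irradiated in red above control in blue, in pathway order. Levels run from under 1 TPM (PIGZ and most tumors of PGAP1) to about 200 TPM (PIGT), and the groups of most genes overlap.

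Several of these genes share exons with others, and the part of this in their values was not tested. PIGQ, PIGU and PIGX overlap other genes on the same strand in GENCODE release 29. The partners of PIGQ were NHLRC4, at 1.11 TPM in irradiated and 0.657 TPM in control tumors, and a gene without a symbol, both too low to be tested. NCOA6, which overlaps PIGU in 96 bases, was at 13.1 TPM in irradiated and 16.6 TPM in control tumors (limma adjusted p = 0.328), and NRROS, which overlaps PIGX in 222 bases, at 1.49 TPM in irradiated and 1.86 TPM in control tumors (adjusted p = 0.682). A further 11 genes overlap others on the opposite strand, and whether the counting used strand is not given in the sources used here. DPM2, PIGV and PIGH, which had differences above 0 without overlap of the groups, share no exon with another gene on their own strand in that release. On the opposite strand, DPM2 overlaps a gene without a symbol in 602 bases, at 0.373 TPM in irradiated and 0.127 TPM in control tumors. PIGH overlaps PLEKHH1 there in 558 bases, at 1.97 TPM in irradiated and 3.34 TPM in control tumors.

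The proteins that receive the anchor were taken as a list of 75 genes, of which 35 were tested. FOLR1 and CD52 reached the filter of 1 TPM only through the irradiated tumors and GPC4 and CEACAM6 only through the controls, so the filter itself favours a difference in these 4, and they are left out of the counts that follow, a choice made after the values were seen. Of the other 31, 3 rose and 0 fell in irradiated tumors, where 1.37% of all tested genes were called higher and 1.61% lower. The groups did not overlap in 11 of the 31 in the higher and 1 in the lower direction, against 11.6% and 15% of all tested genes. Unlike the 31, all tested genes include those that reached the filter only through a single group. Over all 35 the median log2 difference was 0.30, against -0.056 over all tested genes. Of the 4 genes left out of the counts, FOLR1 and CD52 lay above the median of 0.30 and GPC4 and CEACAM6 below it. The list was chosen with earlier results of these data known. LY6E, an interferon-induced surface protein, was at 426, 302 and 274 TPM in irradiated tumors and at 107, 116 and 158 TPM in controls. All irradiated values exceeded all controls (log2 difference 1.38, 95% interval 0.90 to 1.86, limma adjusted p = 0.0161). GPC1, a glypican that carries heparan sulfate, was at 33.5, 23.3 and 33.1 TPM in irradiated tumors and at 14.9, 15.5 and 15.3 TPM in controls (0.91, adjusted p = 0.0369). RAET1G, a ligand of the receptor NKG2D, was at 11.2, 9.23 and 11.8 TPM in irradiated tumors and at 5.41, 4.08 and 5.31 TPM in controls (0.99, adjusted p = 0.0369). RAET1G has close relatives, between which reads can be split in more than 1 way. CD52, a small leukocyte glycoprotein, was low, at 3.32, 1.31 and 2.39 TPM in irradiated tumors and at 0, 0.28 and 0 TPM in controls. Macrophage markers summed to 206.6, 148 and 107.6 TPM in the same irradiated tumors and to 107.5, 87.3 and 103.2 TPM in controls. That sum was carried by CD68, at a mean of 135 TPM in irradiated and 84.6 TPM in control tumors. ADGRE1 differed by 0.64 on the log2 scale and CSF1R by -0.13, and CD163 and MRC1 were too low to be tested. The part of macrophages in the values of CD52 was not tested. CEACAM6, an adhesion molecule, was listed at 0 in the 3 irradiated tumors and was at 2.16, 10.4 and 14.6 TPM in controls. FOLR1 and GPC4 were tested and did not pass. The calls of GPC1 and RAET1G were lost without any one tumor (adjusted p up to 0.172 and 0.178). That of LY6E was lost without irradiated tumor 1 or 2 or control tumor 1 (up to 0.0811).

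The 3 most abundant genes of anchored proteins did not pass the test, and they were chosen after their values were seen. CD59, an inhibitor of complement, was at 697, 536 and 421 TPM in irradiated tumors and at 568, 779 and 624 TPM in controls (log2 difference -0.27, limma adjusted p = 0.483). NT5E, the ectonucleotidase CD73, was at 438, 543 and 355 TPM in irradiated tumors and at 489, 446 and 420 TPM in controls (-0.04, adjusted p = 0.923). Both overlapped widely between the groups. BST2, the antiviral tetherin, was at 990, 752 and 436 TPM in irradiated tumors and at 371, 213 and 418 TPM in controls, without overlap but with a wide spread (1.10, adjusted p = 0.120).

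**Figure D5:**
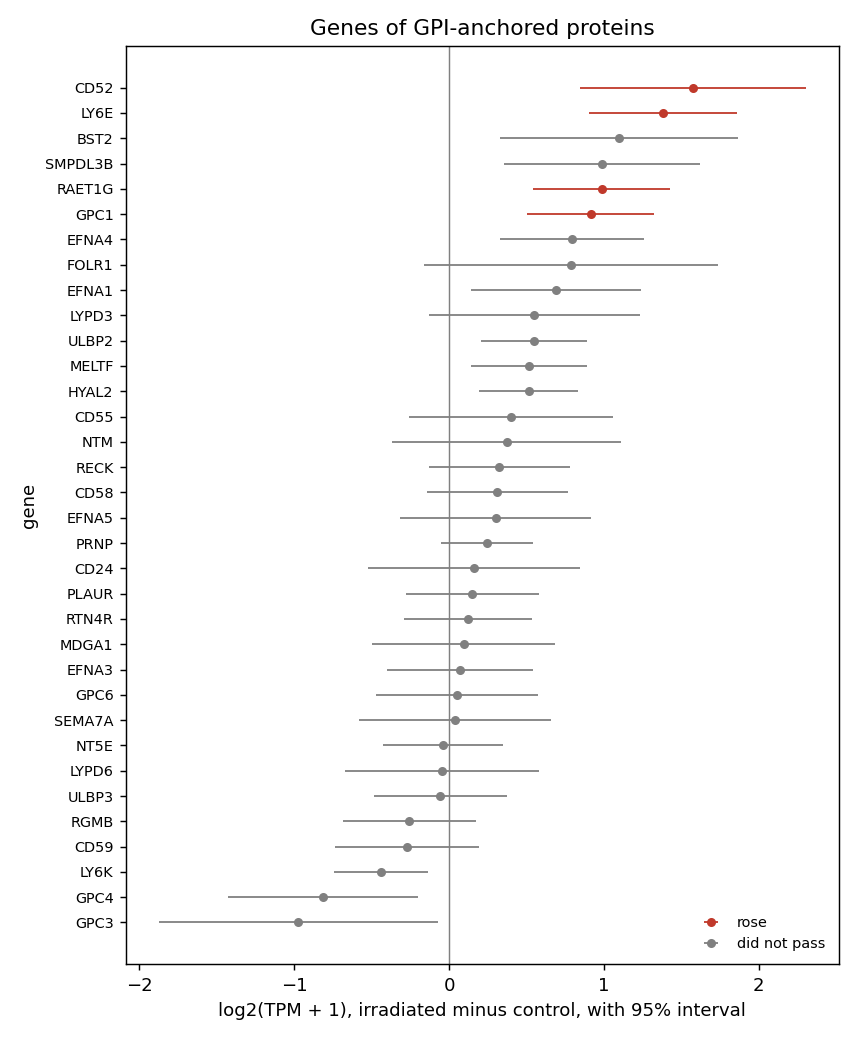
Difference of log2(TPM + 1), irradiated minus control, with limma's 95% intervals for 34 tested genes of GPI-anchored proteins, 3 tumors per group; red marks those called higher, among them CD52, which reached the filter only through the irradiated tumors. CEACAM6, listed at 0 in the irradiated tumors, is not drawn, and most points lie right of 0, as in the median of 0.30.

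Lists of neighbouring pathways gave 0 calls in limma, where 2.98% of all tested genes were called, 20.5% had an unadjusted p under 0.05 and 26.6% did not overlap between the groups. Of 10 tested genes that act elsewhere in GPI synthesis, transport or cleavage, 0 passed, 2 had an unadjusted p under 0.05, and the median was 0.17. The groups did not overlap in 4 of these 10 (40%), 3 higher and 1 lower in irradiated tumors. PGAP6, a lipase that acts on GPI, was at 48.3, 51.5 and 52.6 TPM in irradiated tumors and at 38.2, 39.0 and 39.7 TPM in controls (log2 difference 0.37, adjusted p = 0.147). TMED10, a cargo receptor that carries anchored proteins out of the endoplasmic reticulum, was at 202 ± 29.7 TPM in irradiated and 151.1 ± 15.1 TPM in control tumors (0.41, adjusted p = 0.169). N-glycan assembly also uses dolichol phosphate mannose. Of its 32 genes 0 passed, 7 had an unadjusted p under 0.05, and the median was 0.046. The groups did not overlap in 9 (28.1%, near the share over all genes), 7 higher and 2 lower in irradiated tumors. Over all tested genes 11.6% were higher and 15% lower without overlap. SRD5A3, which makes dolichol, was at 20.0, 12.0 and 10.5 TPM in irradiated and 5.56, 9.70 and 6.98 TPM in control tumors (0.83, adjusted p = 0.146). Of 8 tested genes for other uses of the donor, 0 passed, 1 had an unadjusted p under 0.05, and the median was -0.00092. The groups did not overlap in 1 of these 8 (12.5%). TMTC3, an O-mannosyltransferase of cadherins, was at 3.26 ± 0.517 TPM in irradiated and 5.03 ± 0.665 TPM in control tumors (-0.50, adjusted p = 0.223), and POMT2, an O-mannosyltransferase of dystroglycan, at 14.8 ± 2.47 TPM in irradiated and 11.2 ± 3.95 TPM in control tumors (0.42).

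The methyltransferases and coenzyme Q genes linked to PYURF were tested as 16 genes, and 0 passed in limma. An unadjusted p under 0.05 was reached by 3, the groups did not overlap in 4, or 25%, all lower in irradiated tumors, and the median was -0.17 against -0.056 over all tested genes. Over all tested genes 20.5% had such a p and 26.6% did not overlap, 15% in the lower direction, so these counts lie near the background. NDUFAF5, a complex I assembly factor that PYURF is known to stabilise, was at 7.58, 7.28 and 7.55 TPM in irradiated tumors and at 11.7, 13.1 and 19.8 TPM in controls. The irradiated values were nearly equal and all lay below the controls (log2 difference -0.87, 95% interval -1.37 to -0.38, adjusted p = 0.0736). COQ2, which joins the ring of coenzyme Q to its tail, was at 15.9, 15.8 and 16.6 TPM in irradiated tumors and at 21.8, 22.6 and 20.3 TPM in controls (-0.40, adjusted p = 0.166). The methyltransferases COQ3 and COQ5, chosen after their values were seen, overlapped between the groups. COQ3 was at 4.65 ± 0.976 TPM in irradiated and 6.06 ± 0.627 TPM in control tumors, and COQ5 at 18.3 ± 3.91 TPM in irradiated and 12.3 ± 3.16 TPM in control tumors.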

How the data were processed

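The table holds TPM for 6 tumors, as deposited by the authors, and per the submitters' processing notes HISAT2, StringTie, RSEM and hg38 were used, with no versions or order. Which annotation was used, whether strand was, and how reads of the mouse host were treated is not given. TPM keeps no depth, so no count test, interval or floor was possible. Columns summed to 992259 to 994773 TPM in irradiated and 998020 to 998569 TPM in control tumors.

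The test was limma 3.58.1 (R 4.3.3, trend, two-sided, no covariate) on log2(TPM + 1), a scale that understates changes of low genes, over 14140 genes whose mean level was 1 TPM or higher, and p-values were adjusted over all of them (Benjamini-Hochberg, threshold 0.05); adjusted p-values are limma's throughout. The fit was tested on simulated data. PIGY and PYURF were summed in TPM before the log. Exon overlap and coordinates came from GENCODE release 29, which held 58396 of the 60606 identifiers, and start regions from RefSeq (GRCh38.p14).

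The genes and lists were chosen with earlier results of these data known. The text names all 30 genes, same-strand exon partners, the called genes of each further pathway list or else the 2 with the smallest p, and tested genes with symbols within 500 kb of PIGY; 1 gene and 1 sequence that this takes in are not reported here. Alternatives were other pseudocounts, filters and scalings, no trend, a replicate block, PIGY and PYURF summed in the fit, and each tumor left out.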

Additional observations from a re-analysis of the deposited data

How the results depend on the processing

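Of the other pathway genes tested, 0 passed under each of the 15 alternatives run; these tested 26 of them, except 25 at a minimum mean of 5 TPM and 28 without a filter. The sum of PIGY and PYURF (-0.43, and -0.38 with medians of ratios or quantile scaling) and PYURF (-1.42) moved by less than the spread between tumors in each alternative; no log2 difference of PIGY could be given against controls listed at 0. Calls over all genes were 421, against 279 without trend, 185 with a replicate block, and 107 to 669 with single tumors left out, the highest without control tumor 2. Same-numbered tumors did not deviate together (correlations -0.043, -0.046 and -0.059), none correlated best with its own number, and the replicate block left 0 of 26 pathway genes called. Opposite calls in overlapping pairs were 6, of 371 pairs, at a minimum mean of 5 TPM, against 10. Differences near 0 changed sign: DPM3 was 0.031 with medians of ratios and 0.035 with quantile scaling, and PIGG was -0.0068 with a pseudocount of 5 TPM. With single tumors left out, DPM3 ranged from -0.12 to 0.039, PIGB from -0.0098 to 0.31, PIGG from -0.30 to 0.20, PIGL from -0.19 to 0.0079, PIGO from -0.055 to 0.16 and PIGS from -0.11 to 0.13. The cause was not tested. With 3 tumors per group and unknown depth, small differences of low genes such as PIGM could not be resolved.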

Other observations

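Around PIGY on chromosome 4, 26 genes of the table lie within 500 kb, and 10 of them were tested, PIGY and PYURF included. The interferon-induced genes HERC6 and HERC5 lie 78.5 and 15.4 kb away on the plus strand. HERC6 was at 48.4, 42.5 and 33.4 TPM in irradiated tumors and at 19.8, 9.61 and 21.3 TPM in controls (log2 difference 1.30, limma adjusted p = 0.0559), and HERC5 at 16.8, 13.8 and 10.2 TPM in irradiated tumors and at 7.56, 4.78 and 9.43 TPM in controls (0.84, adjusted p = 0.133). Neither overlapped between the groups, and neither passed. HERC3, 70.6 kb away on the other side, was at 5.25, 7.11 and 7.38 TPM in irradiated tumors and at 8.72, 7.09 and 7.52 TPM in controls (adjusted p = 0.561). PIGY-DT, a noncoding gene that RefSeq starts 34 bases from PYURF on the opposite strand, was at 1.96 TPM in irradiated tumor 1 and was listed at 0 in the other 5 tumors. The phosphatase gene PPM1K (0.39, adjusted p = 0.435), PKD2 (0.54, adjusted p = 0.293), NAP1L5 (0.27, adjusted p = 0.571) and FAM13A (-0.16, adjusted p = 0.689) overlapped between the groups.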
